A study of Saccharomyces cerevisiae with 6 samples.

Results

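The organic sulfur permeases and sulfonate-scavenging genes of Saccharomyces cerevisiae were examined in a met4 mutant, described in the series title as a deletion, set directly against the wild type. Both strains had spent 1 hour in 0.2 mM arsenite, As(III). The set was defined by gene name: MUP1, MUP3, MMP1, SAM3, YCT1, SOA1, SEO1, JLP1 and BDS1. All 9 were present on the array, with 2 spots each, among 5539 named genes. Each of the 6 two-colour arrays carried mutant RNA in Cy3 and wild-type RNA in Cy5, and each counts as 1 replicate of a single comparison. No cells without arsenite were among these arrays, so a difference that exists without arsenite cannot be told apart from one that arises in it. The labels give neither the strain background nor the sulfur source of the medium, and do not say whether the replicates were separate cultures. The p-values therefore weigh each mean only against the scatter between these arrays, part of which may be technical.

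Yeast can build its sulfur amino acids from sulfate or take sulfur up in organic form. Mup1 and Mup3 import methionine, Mmp1 imports S-methylmethionine, Sam3 imports S-adenosylmethionine and Yct1 imports cysteine. Soa1 is a transporter of sulfonates and other sulfur compounds, and Seo1 is a related putative permease. Jlp1 is a dioxygenase that releases sulfite from sulfonates such as taurine, and Bds1 is a sulfatase that acts on alkyl and aryl sulfates. Met4 is the activator that, with its DNA-binding partners Cbf1, Met31 and Met32, switches on sulfur uptake and assimilation genes when sulfur runs short.

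Values are log2 ratios, centred per array on the median over all spots, and means are given ± SD over the arrays. The deposited ratios were not centred, with array medians from -0.95 to 0.92. The log base was taken as 2 and the numerator as the mutant. This direction is likely rather than stated, from the order in the sample titles and because centred MET4 was below 0 on 6 of 6 arrays. A ratio of Cy5 over Cy3 would instead be wild type over mutant, and every sign given here would then be reversed. MET4 stood at -0.59 ± 0.25 (n = 6; limma, adjusted p = 0.0112), which is not the value of an absent transcript, and as deposited it missed the threshold (adjusted p = 0.600). It is not known whether its spots lie inside the deleted part. Because the sign of MET4 helped to set the direction, that sign is not a separate result. Arrays correlated with each other across genes with r between 0.0817 and 0.759, genes not being independent replicates, and duplicate spots within an array with r between 0.899 and 0.984. All arrays had the same dye orientation, so dye bias and mutation cannot be told apart for any single gene.

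None of the 9 genes passed the threshold in the mutant (0 of 9; limma fitted over all 5539 genes, Benjamini-Hochberg adjusted p under 0.05), against 15.1% of all genes, 9.41% higher and 5.69% lower. SEO1, MUP1 and SOA1 came nearest, with means of -0.51, -0.55 and -0.40, and these 3 had unadjusted p under 0.05, a level that 29.5% of all genes reached. The means of 7 members were below 0 and those of 2, SAM3 and YCT1, were above it, while 49.3% of all genes had a mean below 0. The median of the 9 means was -0.25, and that of all genes was 0.0053. All 9 of the 95% intervals lay within 1 log2 unit of 0 if the deposited values are log2, and 5 of 9 if they are natural logarithms. No member had the same sign on all 6 arrays (0 of 9), which 18.1% of all genes had.

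**Figure D1:**
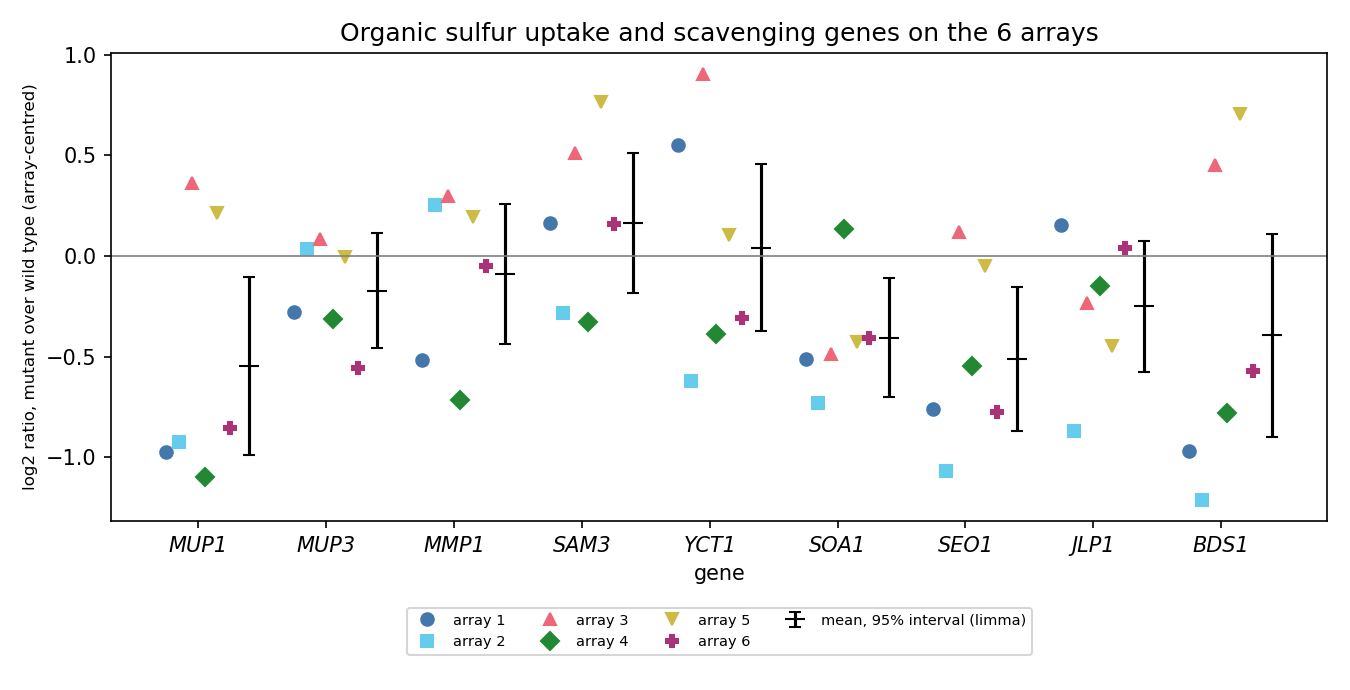
Centred log2 ratio of mutant over wild type for each of the 9 genes (x axis) on each of the 6 arrays (symbols), with the mean and its 95% limma interval (black). MUP1, SEO1 and BDS1 lie far below 0 on arrays 1, 2, 4 and 6 and near or above it on arrays 3 and 5.

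MUP1 (YGR055W) encodes the high-affinity methionine permease. It stood at -0.97, -0.92, 0.36, -1.10, 0.21 and -0.85 on arrays 1 to 6. It was thus low on 4 arrays, where it lay among the lowest 5.80% of genes or lower, and above 0 on arrays 3 and 5. Its mean was -0.55 ± 0.65 (n = 6; 95% interval -0.99 to -0.10; limma, adjusted p = 0.0933; exact permutation by two-sided sign flips, p = 0.125). Its SD was larger than that of 92.8% of genes. Without array 3 the mean was -0.73 and MUP1 passed (adjusted p = 0.0362, with 8.23% of all genes called). The 2 MUP1 spots differed by at most 0.16 on any array.

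MUP3 (YHL036W), the low-affinity methionine permease gene, was at -0.28, 0.04, 0.09, -0.32, -0.0041 and -0.56 on arrays 1 to 6. These values scattered around and below 0, and the lowest was on array 6. The mean was -0.17 ± 0.25 (n = 6; 95% interval -0.46 to 0.11; limma, adjusted p = 0.423), or -0.095 without array 6.

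MMP1 (YLL061W), which encodes the S-methylmethionine permease, was at -0.52, 0.25, 0.30, -0.71, 0.19 and -0.05 on arrays 1 to 6. It was below 0 on 3 arrays and above it on 3. The mean of -0.09 ± 0.43 (n = 6; 95% interval -0.44 to 0.26; limma, adjusted p = 0.758) had no settled sign: it was 0.026 as deposited and 0.035 without array 4. SAM3 (YPL274W), the S-adenosylmethionine permease gene, was at 0.16, -0.28, 0.51, -0.33, 0.77 and 0.16 on arrays 1 to 6. It had the highest mean of the set, 0.16 ± 0.43 (n = 6; 95% interval -0.18 to 0.51; limma, adjusted p = 0.535). That mean moved with single arrays: it was 0.095 without array 3, 0.044 without array 5, 0.25 without array 2 and 0.26 without array 4. Sam3 and Mmp1 are related proteins, and the sequences of the spotted probes were not used here, so signal shared between the genes was not tested.

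YCT1 (YLL055W), the cysteine transporter gene, was at 0.55, -0.62, 0.90, -0.39, 0.10 and -0.31 on arrays 1 to 6. Its range of values was wide, with 3 arrays on either side of 0, and its mean was 0.04 ± 0.59 (n = 6; 95% interval -0.37 to 0.46; limma, adjusted p = 0.917). The mean turned below 0 without array 1 (-0.06) or array 3 (-0.13) and with the last spot only (-0.022). Its duplicate spots disagreed most of all members, by up to 0.41 on 1 array.

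SOA1 (YIL166C) was at -0.51, -0.73, -0.49, 0.14, -0.43 and -0.41 on arrays 1 to 6. It was low on 5 arrays, arrays 3 and 5 among them, and above 0 on array 4 only. The mean was -0.40 ± 0.29 (n = 6; 95% interval -0.70 to -0.11; limma, adjusted p = 0.0655; exact permutation by two-sided sign flips, p = 0.0625). Without array 4 the mean was -0.51 and SOA1 passed (adjusted p = 0.0250, with 12.7% of all genes called), and it also passed with array weights (-0.44; adjusted p = 0.0217, with 19.7% called).

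SEO1 (YAL067C) was at -0.76, -1.07, 0.12, -0.55, -0.05 and -0.77 on arrays 1 to 6. It was low on arrays 1, 2, 4 and 6 and close to 0 on arrays 3 and 5. The mean was -0.51 ± 0.46 (n = 6; 95% interval -0.87 to -0.16; limma, adjusted p = 0.0546; exact permutation by two-sided sign flips, p = 0.0938). This is the smallest adjusted p of the 9 genes, just outside the threshold, and small changes of the processing moved it across: it passed with centring on the named genes only (0.0456), quantile normalization (0.0347), array weights (0.0358) and without array 3 (0.0334). Other changes moved it away from the threshold: the adjusted p was 0.154 with each of 48 runs of consecutive spots centred separately, 0.736 as deposited and 0.103 to 0.155 without array 1, 2, 4 or 6. With centring on the named genes and with quantile normalization 15.3% and 16.8% of all genes were called.

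JLP1 (YLL057C), the sulfonate dioxygenase gene, was at 0.15, -0.87, -0.23, -0.15, -0.45 and 0.04 on arrays 1 to 6. It was lowest on array 2, next lowest on array 5, and close to or above 0 on arrays 1 and 6. Its mean was -0.25 ± 0.37 (n = 6; 95% interval -0.57 to 0.07; limma, adjusted p = 0.291), or -0.13 without array 2. JLP1 and YCT1 were the members whose means depended most on whether arrays were centred as a whole or in parts. When each of 48 equal runs of 272 consecutive spots was centred on its own median, JLP1 was at -0.34, -0.73, -0.71, -0.67, -0.45 and -0.54 on arrays 1 to 6. It was then below 0 on 6 of 6 arrays, at -0.57 ± 0.16 (n = 6), and passed (limma, adjusted p = 0.00491, with 15.3% of all genes called under that centring).

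The run that holds JLP1 also holds YCT1. Its centred spots had the highest mean of array medians of all 48 runs, 0.32, with single arrays from -0.14 to 0.58. YCT1 moved with it, to -0.28 ± 0.56 (n = 6; adjusted p = 0.328). For the other 7 members the mean of the run medians lay between -0.10 and 0.12, and none of them passed with run centring. SOA1, above 0 on array 4 with whole-array centring, was below 0 on 6 of 6 arrays with run centring (-0.33; limma, adjusted p = 0.0568). The runs follow the order of the spots in the deposited values, and whether that is the print order was not tested. Whether the offset of that run comes from its position on the array or from its 114 named genes was not tested either.

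**Figure D2:**
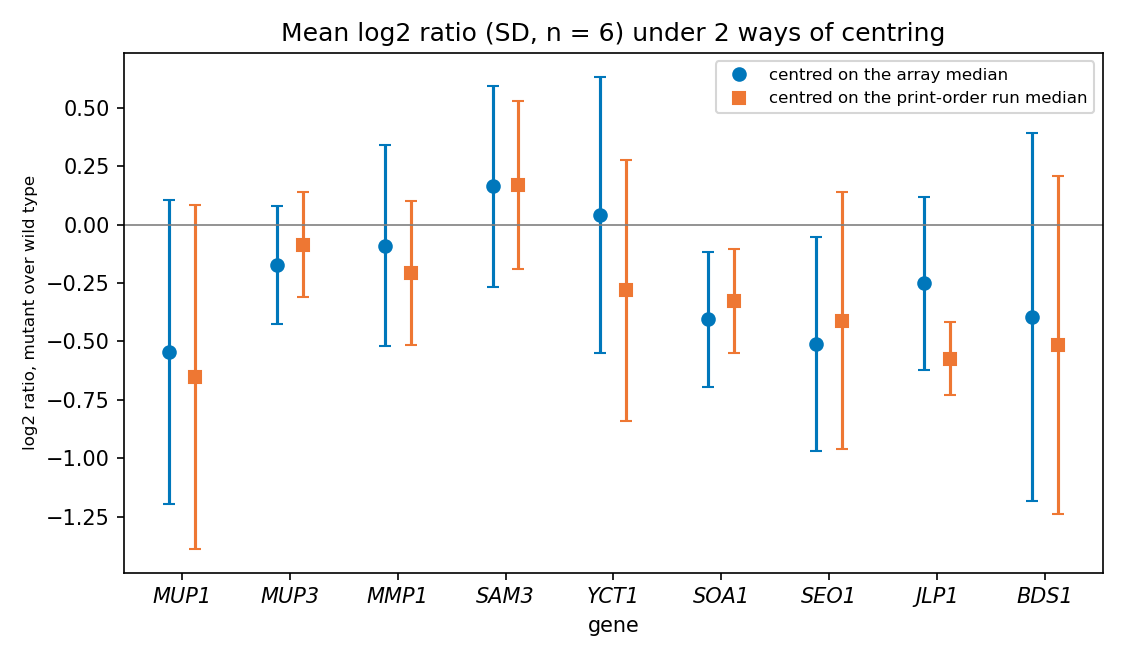
Mean log2 ratio of mutant over wild type with its SD (n = 6 arrays) for each of the 9 genes. Centring was on the array median (circles) or on the median of the run of consecutive spots (squares, labelled print-order run). JLP1 shows a mean of -0.25 with the first and -0.57, with a smaller SD, with the second.

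BDS1 (YOL164W), the sulfatase gene, was at -0.97, -1.21, 0.45, -0.78, 0.70 and -0.57 on arrays 1 to 6. It was the most variable member, with an SD larger than that of 97.0% of genes, and it was low on arrays 1, 2, 4 and 6 and high on arrays 3 and 5. The mean was -0.39 ± 0.79 (n = 6; 95% interval -0.90 to 0.11; limma, adjusted p = 0.288), and it was -0.23 without array 2 and -0.61 without array 5. No alternative brought it past the threshold (smallest adjusted p = 0.0948).

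Members with related roles were compared within arrays, where the array median cancels. MUP1 minus MUP3 was -0.37 ± 0.53 (n = 6; 95% interval -0.93 to 0.18), below 0 on 4 arrays (exact permutation by two-sided sign flips, p = 0.156; adjusted over the 4 pairs compared, 0.375). MMP1 minus SAM3 was -0.25 ± 0.43 (n = 6; 95% interval -0.71 to 0.20), below 0 on 5 arrays (exact permutation p = 0.188; adjusted 0.375). Without array 2 it was -0.41 ± 0.21 and below 0 on the other 5 arrays (adjusted 0.250, where 5 arrays cannot pass). SEO1 minus SOA1 was -0.11 ± 0.49 and JLP1 minus BDS1 was 0.14 ± 0.87 (n = 6; exact permutation p = 0.625 and 0.750; adjusted 0.750 for both). No pair passed, but the smallest p that 6 arrays allow is 0.0312, which becomes 0.125 for a single pair after adjustment. One pair alone could thus not have passed. Most of the 4 pairs would have had to reach that smallest p together for any of them to pass. Leaving out 1 array moved SEO1 minus SOA1 between -0.25 (without array 3) and 0.0067 (without array 4), and JLP1 minus BDS1 between -0.051 (without array 1) and 0.40 (without array 5). These intervals, up to 1.06 for JLP1 minus BDS1, are too wide to say that the partners responded alike.

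MUP1, SAM3, SEO1 and BDS1 each had their 2 highest values on arrays 3 and 5. The other members did not: MUP3 and MMP1 were highest on arrays 3 and 2 and YCT1 on arrays 3 and 1. SOA1 was highest on array 4 and JLP1 on array 1. The median of the 9 genes was -0.51, -0.73, 0.30, -0.39, 0.10 and -0.41 on arrays 1 to 6. Arrays 3 and 5 were also the arrays on which MET17, the O-acetylhomoserine sulfhydrylase gene and the lowest gene of the table, was nearest to 0. It stood at -1.11 and -0.98 there and at -2.42 or lower on the other 4. Among the other sulfur genes that fell, named below, MET14, MET16, CYS4 and MET28 were also nearest to 0 on arrays 3 and 5. MET3, MET5, MHT1 and MET4 did not share this pattern. MET4 was nearest to 0 on arrays 6 and 3 (-0.32 and -0.33) and stood at -0.55 on array 5. Of all pairs, arrays 3 and 5 had the highest correlation across genes (r = 0.759). How many of all genes have their 2 highest values on arrays 3 and 5 was not counted. The ordering is therefore not shown to be particular to the members or to sulfur genes. What sets these arrays apart was not tested.

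**Figure D3:**
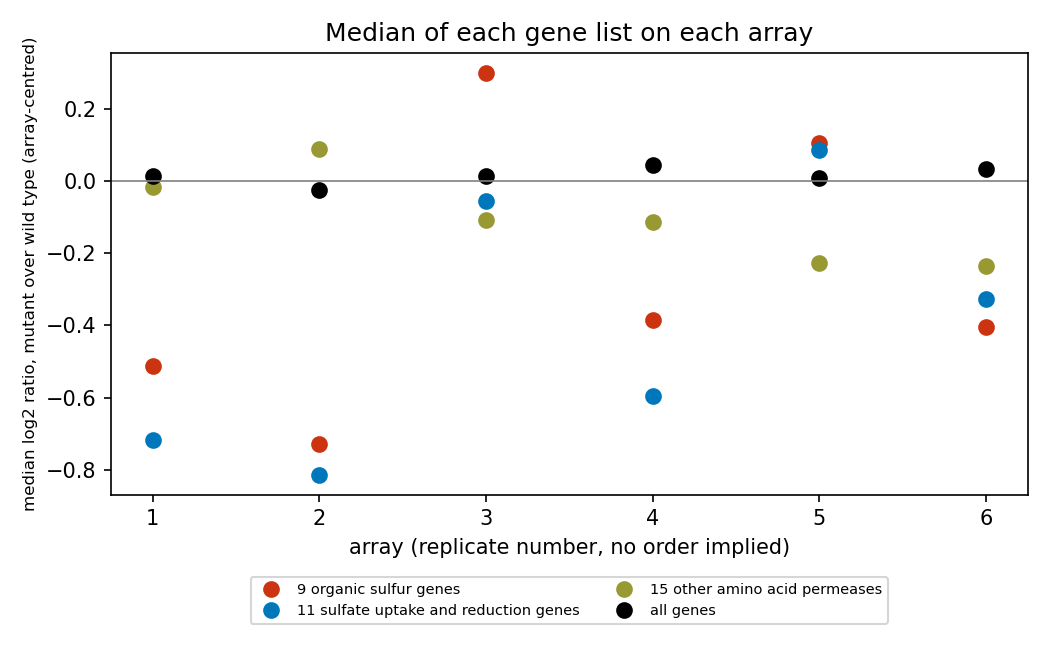
Median centred log2 ratio of mutant over wild type (y axis) on each of the 6 arrays (x axis) for the 9 organic sulfur genes, the 11 genes of sulfate uptake and reduction, 15 other amino acid permease genes and all genes. The organic sulfur genes and the sulfate genes lie below -0.3 on arrays 1, 2, 4 and 6, and the 2 highest medians of the organic sulfur genes are on arrays 3 and 5.

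By likeness of their ratios over the 6 arrays, the genes nearest to MUP1 were MRP2, PCL6, SEO1, BDS1 and CTR2. Their root mean square differences from MUP1 were 0.261, 0.288, 0.290, 0.293 and 0.295 log2 units. Of the 5538 other genes, 2 were nearer than SEO1 and 3 nearer than BDS1. The remaining members were further away, from 0.609 for MUP3 to 0.793 for JLP1. No test is attached to this ranking. MRP2, PCL6 and CTR2 did not pass the threshold, with means of -0.44, -0.44 and -0.29, although PCL6 passed with run centring (-0.37; adjusted p = 0.0481).

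The neighbouring steps of sulfur metabolism did contain genes past the threshold. Of 11 genes of sulfate uptake and reduction 4 fell and none rose, where 5.69% of all genes fell and 9.41% rose. The median of the 11 was -0.33, and the 4 were MET14 (-1.70 ± 1.08), MET16 (-1.36 ± 1.26), MET3 (-1.31 ± 1.35) and MET5 (-0.91 ± 0.60; limma, adjusted p from 0.00346 to 0.0326). The sulfate permease genes SUL1 and SUL2 were at 0.07 ± 0.60 and -0.55 ± 0.61 (n = 6 each; limma, adjusted p = 0.852 and 0.0786) and did not pass either, although SUL2 passed without array 5 (adjusted p = 0.0299) and with run centring (0.0312). MET3 lost its call without array 4 or 6 (adjusted p = 0.0747 and 0.121), MET16 without array 1 or 6 (0.0523 and 0.0569), with run centring and with robust empirical Bayes, which also ended the MET3 call, and MET5 as deposited.

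Among 12 enzymes that use or interconvert sulfur amino acids, 3 fell and 1 rose, where 5.69% of all genes fell and 9.41% rose. The median of the 12 was -0.18. The highest and lowest of these were STR2, cystathionine gamma-synthase (0.47 ± 0.21), and MET17 (-2.27 ± 1.04), and CYS4, cystathionine beta-synthase, was at -1.28 ± 0.57. MHT1, the methyltransferase that makes methionine from the S-methylmethionine imported by Mmp1, fell by 0.61 ± 0.53 (n = 6; limma, adjusted p = 0.0390). That call was lost without any 1 array except array 5 (adjusted p up to 0.126), as deposited, with run centring and with arrays scaled to equal spread. SAM4, the corresponding enzyme for S-adenosylmethionine imported by Sam3, was at -0.27 ± 0.51 (n = 6; adjusted p = 0.333). The STR2 call was lost without array 1, 3 or 5, as deposited and with the last spot only.

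Permeases for other substrates were counted in the same way. Of 15 other amino acid permease genes none passed (0 of 15, against 15.1% of all genes), with a median of -0.11 and means from -0.36 to 0.32, and the smallest adjusted p was that of HIP1, the histidine permease gene (-0.30 ± 0.24, n = 6; limma, adjusted p = 0.143). Of 5 further genes of the Dal5 family, to which YCT1, SOA1 and SEO1 belong, 1 rose, where 9.41% of all genes rose. This was VHT1, the biotin transporter gene, at 1.10 ± 0.40 (n = 6; limma, adjusted p = 0.000881). It was above 0 on 6 of 6 arrays, between 0.68 and 1.51. The median of these 5 genes was -0.16.

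Of 6 genes for permease sorting and exit from the endoplasmic reticulum, 1 rose, where 9.41% of all genes rose. In a list this short, 1 riser cannot be told from that share. BUL1, which encodes an adaptor of the ubiquitin ligase Rsp5, stood at 0.75 ± 0.60 (n = 6; limma, adjusted p = 0.0215), a call lost as deposited and without array 3, 4, 5 or 6 (adjusted p up to 0.0737 without 1 array). The gene of LDB19, the adaptor known to direct Mup1 to the vacuole, was at 0.11 ± 0.22. Of 5 genes for glutathione uptake and breakdown 1 rose, again against 9.41% of all genes. It was the gamma-glutamyltranspeptidase gene ECM38 (0.76 ± 0.45; adjusted p by limma 0.00925, but 0.0821 without centring). Of MET4 and its 5 partners, MET4 and the cofactor gene MET28 (-0.43 ± 0.27) were lower, where 5.69% of all genes were. The others did not pass, and MET28 lost its call without any 1 array, as deposited, with run centring and with the last spot only.

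The members share a location that their selection did not use. By gene order in the RefSeq R64 annotation, 8 of the 9, all but MUP1, have at most 15 protein-coding genes between them and a chromosome end. MUP1, on chromosome VII, has 232. Of all measured genes 8.23% lie that close to an end. Those 454 genes had a median of 0.07 and 20.5% of them passed, against 0.00039 and 14.6% of the other 5062 genes. This grouping was made after the values had been seen. Its limit of 15 genes equals the number for MUP3, the furthest from an end of the 8. The 8.23% is thus set against a limit that these members just meet.

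MMP1, JLP1 and YCT1 lie within a short stretch near the left end of chromosome XII, in the order AYT1, MHT1, MMP1, GTT2, HSU1, JLP1, YLL056C, YCT1, YLL054C and YLL053C. MHT1 was the only one of these 10 genes past the threshold. MHT1 and MMP1, which serve the same substrate and are neighbours, stood at -0.61 ± 0.53 and -0.09 ± 0.43. GTT2, a glutathione transferase gene, was the highest at 0.91 ± 1.35 (n = 6; limma, adjusted p = 0.120, and 0.0261 as deposited) and ranged from -0.24 on array 2 to 3.39 on array 3. Without array 3 its mean was 0.41 (adjusted p = 0.281). The other pair of this kind, SAM4 and SAM3 on chromosome XVI, stood at -0.27 and 0.16.

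**Figure D4:**
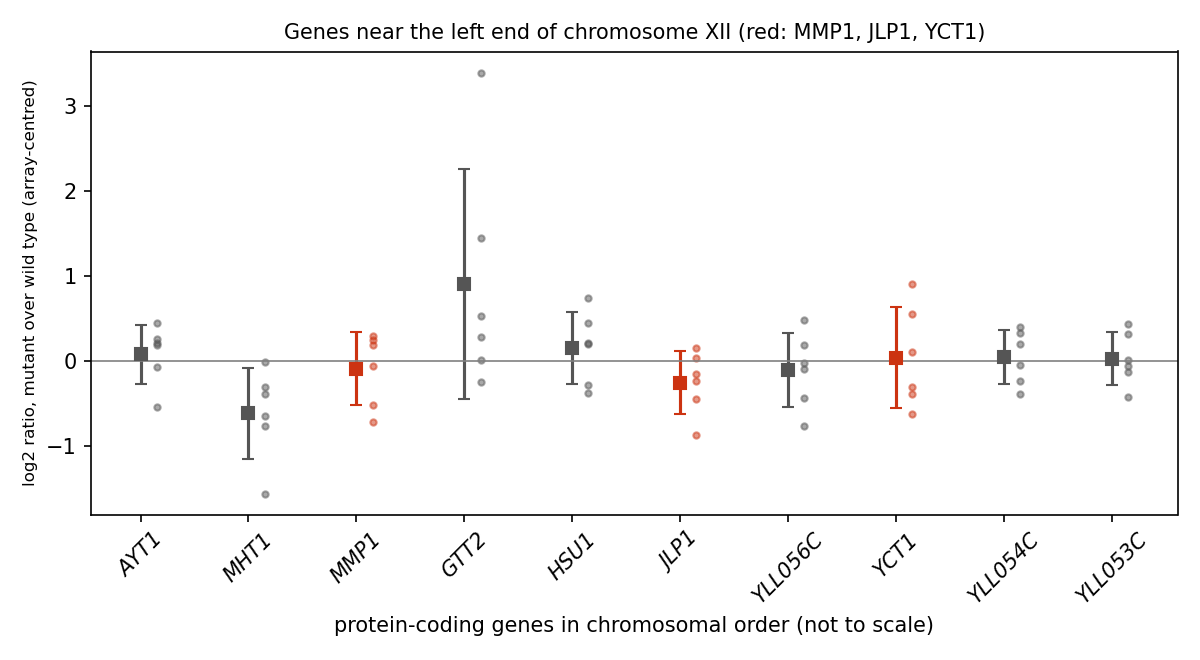
Centred log2 ratio of mutant over wild type for 10 protein-coding genes in their order near the left end of chromosome XII, as mean with SD (squares) and single arrays (dots), with MMP1, JLP1 and YCT1 in red. MHT1 has the lowest mean, -0.61, and GTT2 the highest, 0.91, with the widest spread.

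Next to BDS1, on chromosome XV, lie YOL163W and YOL162W, open reading frames related to the Dal5 family, at 0.10 ± 0.22 and 0.22 ± 0.56, and, on the other side, AAD15, an aryl-alcohol dehydrogenase gene, at 1.60 ± 1.02 (n = 6; limma, adjusted p = 0.00353). The mean of BDS1 was below 0, but BDS1 did not pass, and its difference from AAD15 was not tested. Counting the 2 nearest genes on either side of each member, 27 further genes were measured, of which 4 rose and 1, MHT1, fell. These 5 are 18.5% of the neighbours, near the 15.1% of all genes. The 4 were AAD15, LST7 beside MUP1 (1.06 ± 0.35), YIL165C beside SOA1 (0.56 ± 0.19) and VMR1, a vacuolar transporter gene beside MUP3 (0.59 ± 0.54). The VMR1 call was lost without any 1 array except array 4 (adjusted p up to 0.143), as deposited, with run centring, with the last spot only and with centring on the named genes, and the YIL165C call as deposited. Neighbours were named after their values had been seen.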

How the data were processed

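Total RNA of mutant and wild type was measured on 6 two-colour arrays. The authors' deposited values are log ratios per spot, read as log2; background correction, image software and log base: not given in the sources used here. As natural logarithms each value would be 1.44 log2 units per unit printed, with the same tests. Other value columns numbered 0. Spots were named through the platform annotation (11138 of 13056 with 1 symbol, 0 with several, 1918 with none). Exact zeros (134) were set to missing, with 0 at the members' spots. Each array was centred on its median, and spots were averaged per gene. Genes needed a value on at least 4 arrays. Mean ratios were compared with 0 by limma 3.58.1 under R 4.3.3 (intercept, eBayes; Benjamini-Hochberg over 5539 genes; adjusted p under 0.05). Tested on simulated ratios for this comparison with 5539 genes, it recovered 32.8% of changes of 0.5, 97.0% of 1 and 100% of 2 log2 units, with 10 of 163 calls false. The simulated noise was independent between genes and arrays, and few genes were changed. The real arrays correlate with each other, so these shares need not hold for them. Single values were tested by exact sign flips over 64 patterns. Members, lists and alternatives were chosen with earlier results of these data known. Genes named were the members, MET4, the genes past the threshold in each of 7 lists (or the smallest adjusted p), and the 5 genes nearest MUP1. SUL1, SUL2, SAM4, LDB19 and the neighbours were added after their values were seen. The number of arrays limits precision. Alternatives, 18 in all, were: no centring, centring on named genes or on 48 runs of consecutive spots, equal spread, quantile normalization, zeros kept, first or last spot, all arrays required, robust empirical Bayes, array weights, natural logarithms and leaving out each array. Figures used matplotlib 3.10.9.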

Additional observations from a re-analysis of the deposited data

Results flagged for a closer look

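SOA1 on array 4 stood apart from the other arrays of the comparison, at 0.14, where the next highest of the 6 values was -0.41. The gap was 0.627 of the whole range, just above Dixon's 95% critical value of 0.625. YOL163W, a neighbour of BDS1, was set apart in the same way by 1 array at -0.32, where the next lowest was 0.06 (a gap of 0.666 of the range). These were 2 flags among 37 genes and 4 pair differences examined, where chance flags about 1 in 20. Without array 4 SOA1 passed the threshold, as described above. The run of consecutive spots that holds SOA1 had a median of 0.17 on array 4. With run centring SOA1 was at -0.034 on array 4 and -0.078 on array 6, so array 4 no longer stood apart. It was then below 0 on 6 of 6 arrays, at -0.33 ± 0.22 (n = 6; limma, adjusted p = 0.0568), and did not pass.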

How the results depend on the processing

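The count of members past the threshold was 0 as reported. It was 1 with centring on the named genes (SEO1), with run centring (JLP1) and with quantile normalization (SEO1). It was 2 with array weights (SEO1 and SOA1) and between 0 and 2 when 1 array was left out (MUP1 and SEO1 without array 3, SOA1 without array 4). All were negative. The count over all genes was 836 as reported, 246 as deposited and 456 to 965 with 1 array left out, lowest without array 3. As deposited 187 genes were above 0 and 59 below, against 521 and 315 after centring. Among the 60 pathway genes 13 passed as reported (15.1% of all genes did), 6 as deposited and 8 to 12 with 1 array left out. Signs turned for MMP1 (0.026 as deposited, and -0.17 to 0.035 with 1 array left out). They also turned for YCT1 (-0.022 with the last spot, -0.28 with run centring, and -0.13 to 0.17 with 1 array left out). The same held for SUL1 (-0.15 with run centring, and -0.093 to 0.26 with 1 array left out). Among the pair differences, JLP1 minus BDS1 turned (-0.059 with run centring, and -0.051 to 0.40 with 1 array left out), as did SEO1 minus SOA1 (-0.25 to 0.0067 with 1 array left out). The cause was not tested. No pair difference passed under any of the 18 alternatives, but this outcome was nearly fixed in advance. With 5 arrays no sign-flip p can be under 0.0625. With 6 arrays most pairs would have had to reach the smallest possible p together for any to pass. Each ratio already pairs the strains within an array, and the arrays form 1 group, so no further pairing was used. Without scanner intensities, signal over background is unknown for every member.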
